A study of Homo sapiens with 12 samples.

Results

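The genes described here are 33 genes of cholesterol and fatty acid synthesis that are placed under the sterol regulatory element-binding proteins (SREBPs). They were chosen as a list of symbols and looked up by symbol in a table of 56609 genes. All 33 had a row, and all 33 were among the 21698 genes with enough counts to be tested. RNA was sequenced from A375, an established human malignant melanoma line grown in medium with serum, in 4 groups of 3 replicates. The groups were wild-type cells in DMSO, wild-type cells in 500 nM JQ1, MAPKAPK2-knockout cells in DMSO and MAPKAPK2-knockout cells in 500 nM JQ1, all for 48 h. The knockout was made with CRISPR/Cas9, and the labels do not say whether the cells were a clone or a pool. JQ1 displaces BET bromodomain proteins from acetylated chromatin, and the question of the series was how cells without MAPKAPK2, which encodes the kinase MK2, come to resist such inhibitors. Cultures without JQ1 are named untreated in their titles and DMSO in the treatment field, which was followed. Nothing in the labels says that the replicates were separate cultures, so the p-values measure the spread between these libraries, which may be technical.

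SREBPs are transcription factors made as membrane proteins of the endoplasmic reticulum. When sterols are plentiful, INSIG proteins hold the escort protein SCAP, and with it the SREBP, in that membrane. When sterols run low, SCAP carries the SREBP to the Golgi, where proteases release the part that enters the nucleus and raises transcription of lipid synthesis genes. The SREBF2 product is best known for the sterol genes and the SREBF1 products for the fatty acid genes. The sterol and the fatty acid branches both start from acetyl-CoA. Serum in the medium supplies lipoprotein cholesterol to cultured cells.

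The libraries held from 25316899 to 34594295 counts, and the 33 genes held from 0.347% to 0.349% of the counts in wild-type DMSO, 0.300% to 0.311% in wild-type JQ1, 0.329% to 0.360% in knockout DMSO and 0.276% to 0.297% in knockout JQ1. MAPKAPK2 stood at 89.6 ± 2.20 CPM (counts per 1000000 of the scaled library) with DMSO and 117 ± 4.31 with JQ1 in wild-type cells, and at 12.4 ± 1.15 with DMSO and 14.4 ± 1.61 with JQ1 in knockout cells (SD, n = 3 each). Knockout JQ1 replicate 3 stood apart from its group: its chi-square per degree of freedom over genes was 25.5 and 26.8 against the other knockout JQ1 libraries, while the other pairs within a group lay between 3.32 and 7.58. For the 33 genes, values without it are given below wherever its removal changed a call in any comparison, changed the sign of the JQ1 response in knockout, or moved a called value by over 1.5 times. Leaving it out also changes the estimate of spread shared by all comparisons. The share of all tested genes called without it is not given, so counts without it lack that comparison. The summed level of 8 melanocyte lineage markers was 460.0 to 765.8 CPM and came mostly from SOX10, while the pigment cell markers MLANA, PMEL, TYR, DCT and TYRP1 were near 0. The summed markers of fibroblasts reached at most 12.8 CPM and those of leukocytes, keratinocytes, endothelial cells and adipocytes less, with KRT1 at 0 in every library. In bulk RNA, fewer cells of a type and less RNA per cell cannot be told apart. CPM are not divided by gene length, so levels below are compared between libraries and not between genes.

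After JQ1 the 33 genes split evenly between rises and falls in wild-type cells, and falls were the larger number in knockout cells. In edgeR's quasi-likelihood test, with p-values adjusted by Benjamini-Hochberg, 20 of 33 (60.6%) passed the 0.05 threshold against 33.1% of all tested genes, with 10 higher and 10 lower. Of all tested genes, 16.9% were called higher and 16.2% lower. The median log2 fold change was -0.013 over the 33 genes and -0.034 over all tested genes. In knockout cells 18 of 33 (54.5%) passed, against 34.4% of all tested genes, with 5 higher and 13 lower. There 16.7% of all tested genes were called higher and 17.8% lower, and the median was -0.17 over the 33 genes and -0.0035 over all tested genes. Without knockout JQ1 replicate 3 the knockout split was 4 higher and 14 lower. Falls in both genotypes were called for SREBF2, HMGCS1, FDPS, CYP51A1, SC5D, STARD4, ELOVL6, FADS1 and FADS2, and rises in both for SREBF1, SCAP, INSIG2, AACS and LSS. No gene passed in opposite directions. Apart from TM7SF2, the 33 genes held at least 146 counts in every library. All tested genes include ones with few counts, in which a change is harder to call. The shares called, here and below, are therefore not of sets with like counts.

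The balance of rises and falls depended on how libraries were scaled. With library totals alone as the scale, the median of all tested genes moved by -0.13 in wild type and by -0.12 in knockout, and the split of the 33 genes became 3 higher and 13 lower in wild type and 3 higher and 16 lower in knockout. The rises left were SCAP, AACS and LSS in wild type and INSIG2, AACS and LSS in knockout. The added falls were DHCR7 (-0.19, adjusted p = 0.0352), ACACA (-0.23, adjusted p = 0.00225) and SCD (-0.12, adjusted p = 0.0465) in wild type, and FDFT1 (-0.22, adjusted p = 0.0112), MSMO1 (-0.38, adjusted p = 0.00997) and NSDHL (-0.34, adjusted p = 0.00445) in knockout, as log2 fold changes by edgeR. Under that scale 30% of all called genes in wild type and 31.5% in knockout were higher, against 51.0% and 48.4% with the TMM factors used here. Upper-quartile factors gave 5 higher and 11 lower in wild type, with 40.2% of all called genes higher. The count of rises in wild type also rested on single libraries: it was 4 without wild-type JQ1 replicate 1 and 6 without wild-type JQ1 replicate 2 or any of the 3 wild-type DMSO replicates. In knockout it was 3 without knockout DMSO replicate 1. The count of falls in wild type stayed within 1.5 times its value in all 22 alternatives, as did that in knockout.

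**Figure D1:**
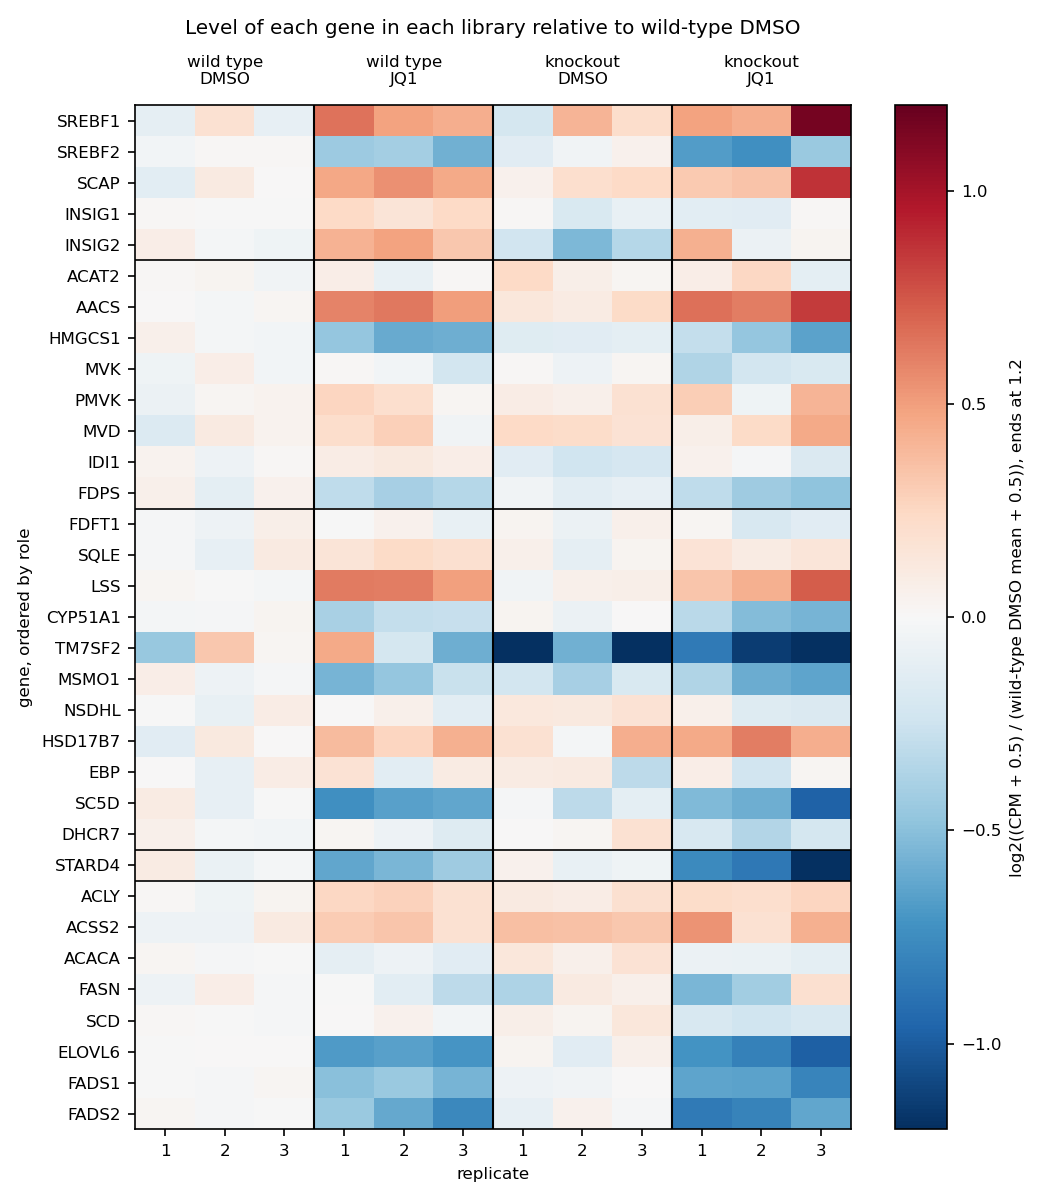
Colour map of the 33 genes (vertical axis, in order of role) in the 12 libraries (horizontal axis, replicate number within group). Colour is the log2 ratio of CPM + 0.5 to the wild-type DMSO mean + 0.5, and the scale ends at 1.2 in both directions. ELOVL6, FADS1 and FADS2 are blue in all 6 JQ1 libraries, AACS and LSS are red in all 6, and knockout JQ1 replicate 3 is the darkest red for SREBF1.

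Among the 5 SREBP regulators, the gene of the sterol-directed factor fell and the escort gene and the other factor's gene rose. In wild type 4 of the 5 rose and 1 fell, and in knockout 3 rose and 1 fell. The shares called were 100% and 80.0%, against 33.1% and 34.4% of all tested genes. SREBF2 stood at 194, 201 and 202 CPM with DMSO and 147, 149.7 and 133 with JQ1 in wild-type cells. In knockout it stood at 181, 193 and 207 CPM in DMSO and at 125, 119 and 146 in JQ1. All 6 JQ1 libraries lay below all 6 DMSO libraries. SREBF2 fell by 28.1% in wild type (log2 fold change -0.48, SE 0.076, adjusted p = 0.000232) and fell by 32.7% in knockout (log2 fold change -0.57, SE 0.077, adjusted p = 4.03e-05), both by edgeR. The exons of SREBF2 overlap SREBF2-AS1 on the opposite strand over 280 bases. In GENCODE release 29, 14 of the 33 genes overlap exons on the opposite strand, and whether counting used the strand is not stated, so reads of such pairs may not be told apart.

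SREBF1, whose products act mainly on fatty acid genes, stood at 53.6, 65.5 and 53.9 CPM with DMSO and 91.1, 80.5 and 78.2 with JQ1 in wild-type cells. In knockout the values were 49.7, 76.7 and 66.8 in DMSO and 80.6, 78.2 and 128 in JQ1. The groups did not overlap within either genotype, but knockout JQ1 replicate 3 was far above the other JQ1 libraries and knockout DMSO replicate 1 was the lowest of all. SREBF1 rose by 44.5% in wild type (log2 fold change 0.53, SE 0.18, adjusted p = 0.0312) and by 48.9% in knockout (log2 fold change 0.57, SE 0.18, adjusted p = 0.0200). These calls rested on single libraries. In wild type the adjusted p by edgeR was above the threshold without replicate 1 (0.0941) or 3 (0.0926) of wild-type DMSO, or replicate 1 (0.108) or 2 (0.0610) of wild-type JQ1. In knockout it was above the threshold without replicate 1 (0.0855) of knockout DMSO, or replicate 3 (0.0940) of knockout JQ1, and the log2 fold change without knockout JQ1 replicate 3 was 0.30.

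SCAP, the escort protein of the SREBPs, stood at 47.6, 55.9 and 51.98 CPM with DMSO and 71.7, 75.9 and 71.1 with JQ1 in wild-type cells. In knockout it stood at 53.8, 59.8 and 61.2 in DMSO and at 64.6, 65.8 and 94.9 in JQ1. Wild-type groups were well separated, while in knockout the gap came mostly from replicate 3 of JQ1. SCAP rose by 40.8% in wild type (log2 fold change 0.49, SE 0.12, adjusted p = 0.00509) and by 29.1% in knockout (log2 fold change 0.37, SE 0.12, adjusted p = 0.0262). The knockout call by edgeR was lost without replicate 1 (0.0915) or 2 (0.0527) of knockout DMSO, or replicate 3 (0.0920) of knockout JQ1, and without knockout JQ1 replicate 3 the log2 fold change was 0.16.

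The INSIG genes, which encode the anchors that retain SCAP, are taken in turn. INSIG1 stood at 53.1, 52.2 and 52.1 CPM with DMSO and 62.1, 58.6 and 61.9 with JQ1 in wild-type cells, and at 53.2, 46.2 and 49.3 with DMSO and 48.1, 47.8 and 52.9 with JQ1 in knockout cells. Its 3 wild-type JQ1 libraries were above all others, and the knockout groups overlapped. INSIG1 rose by 16.02% in wild type (log2 fold change 0.21, SE 0.065, adjusted p = 0.0195), and its log2 fold change in knockout was 0.0015 (SE 0.066, adjusted p = 0.991 by edgeR), or -0.046 (adjusted p = 0.630) without knockout JQ1 replicate 3. The wild-type call of INSIG1 was lost without replicate 2 (0.0622) or 3 (0.0610) of wild-type DMSO, or replicate 1 (0.0686) or 3 (0.0566) of wild-type JQ1. INSIG2 stood at 7.96, 7.40 and 7.23 CPM with DMSO and 10.2, 10.7 and 9.56 with JQ1 in wild-type cells, and at 6.35, 5.01 and 5.83 with DMSO and 10.3, 7.14 and 7.72 with JQ1 in knockout cells. Within each genotype every JQ1 library was above every DMSO library. INSIG2 rose by 34.7% in wild type (log2 fold change 0.43, SE 0.13, adjusted p = 0.0213) and by 46.3% in knockout (log2 fold change 0.55, SE 0.14, adjusted p = 0.00610). In wild type the call of INSIG2 was lost without replicate 2 (0.0608) or 3 (0.0725) of wild-type DMSO, or replicate 1 (0.0570) or 2 (0.0739) of wild-type JQ1, while in knockout it was kept in all 22 alternatives.

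Promoter stretches of 4 of the 33 genes are printed because they fell or rose in both genotypes: SREBF2 and STARD4 fell, LSS and SREBF1 rose. Each stretch runs from position -220 to position -71 relative to the gene's start, 5′ to 3′ on the gene's strand, from the RefSeq promoter table (GRCh38.p14). Capitals mark matches, on either strand, to TCACNCCAC, a form of the sterol regulatory element, or to the E-box CACGTG. They also mark the site of NF-Y, a known partner of SREBPs, whose letters are CCAAT. On the opposite strand that site reads as ATTGG.
SREBF2 (chr22:41832885-41833034, + strand): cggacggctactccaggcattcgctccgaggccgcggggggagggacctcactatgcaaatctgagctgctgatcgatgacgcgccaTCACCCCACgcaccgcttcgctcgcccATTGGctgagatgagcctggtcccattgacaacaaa
STARD4 (chr5:111512606-111512755, - strand): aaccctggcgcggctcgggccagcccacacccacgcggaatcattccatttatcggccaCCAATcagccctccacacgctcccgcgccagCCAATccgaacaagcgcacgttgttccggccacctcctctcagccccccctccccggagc
LSS (chr21:46228845-46228994, - strand): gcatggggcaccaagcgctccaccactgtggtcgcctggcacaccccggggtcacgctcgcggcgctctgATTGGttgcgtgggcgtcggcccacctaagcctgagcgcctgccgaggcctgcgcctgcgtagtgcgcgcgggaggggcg
SREBF1 (chr17:17837057-17837206, - strand): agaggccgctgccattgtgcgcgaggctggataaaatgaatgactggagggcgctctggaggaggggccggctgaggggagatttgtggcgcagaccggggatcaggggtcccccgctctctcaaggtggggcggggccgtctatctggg
The SREBF2 stretch holds TCACCCCAC beginning 133 bases before the start and ATTGG beginning 106 bases before it. In the STARD4 stretch CCAAT begins 161 and 130 bases before the start, and in the LSS stretch ATTGG begins 150 bases before it. The SREBF1 stretch has none of the 3 marked motifs. Of the 33 genes, 29 had an entry in the table, with 40 windows of 250 bases before a start. TCACNCCAC was in 1 of these 40 windows, that of SREBF2, and in 0.883% of all 35116 windows. CACGTG was in 4 of 40 windows (SCAP, INSIG1 and SC5D) and in 6.34% of all windows. CCAAT was in 24 of 40 windows (60.0%), those of 20 of the 29 genes, and in 32% of all windows. A CCAAT match was held by 5 of the 9 genes that fell in both genotypes, by 1 of the 5 that rose in both (LSS), and by 5 of the 6 genes with an entry that passed in neither. A match is a description of the letters in the window and not a site of binding.

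**Figure D2:**
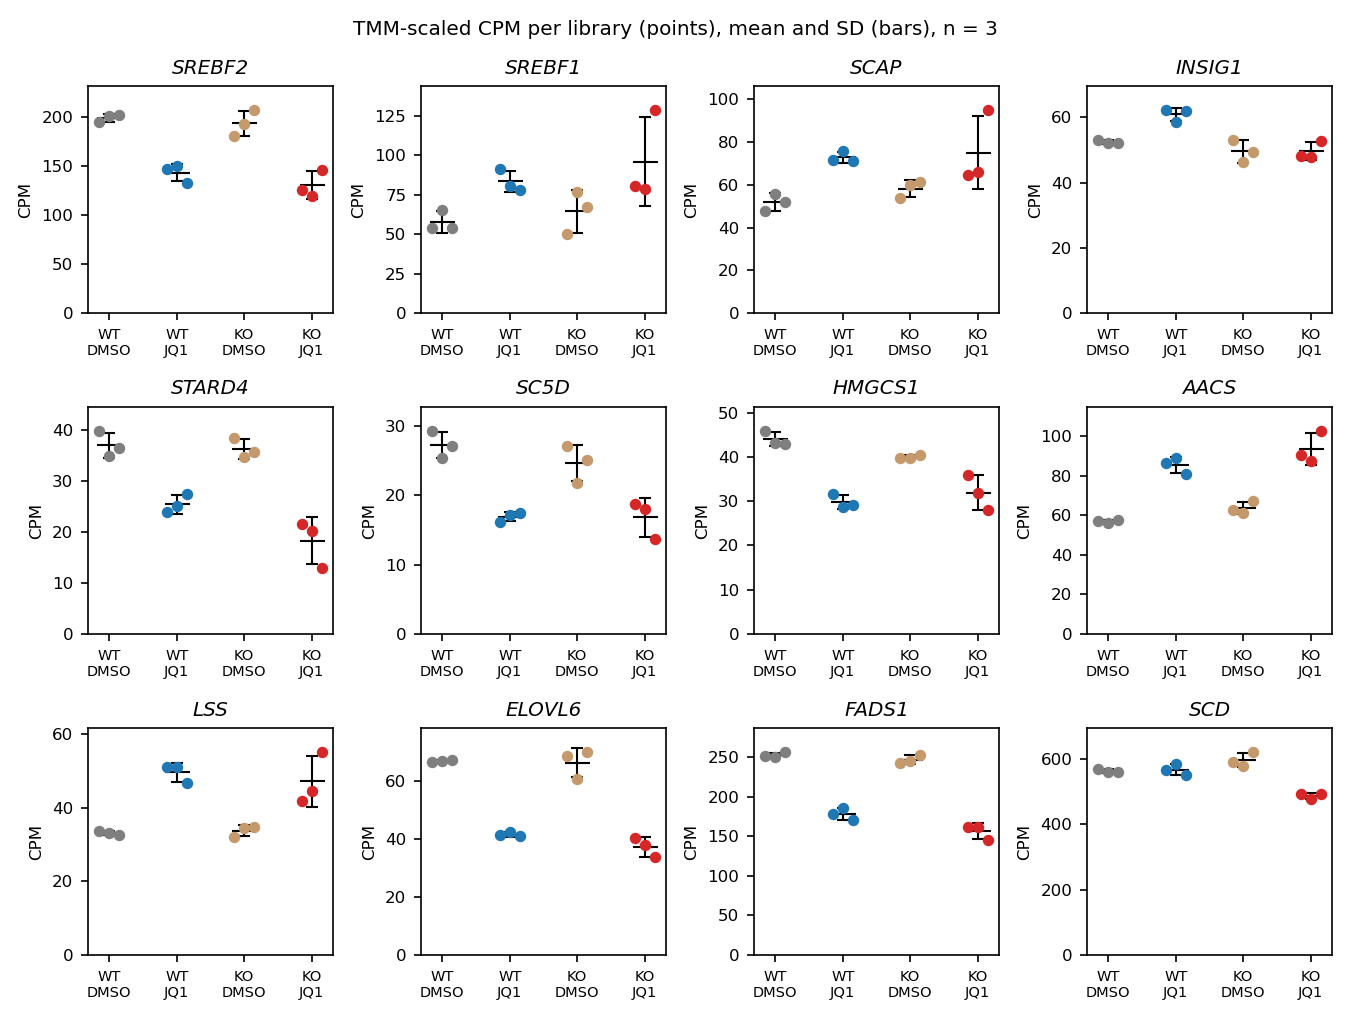
CPM after TMM scaling (vertical axes, each from 0) of 12 genes in the 4 groups (horizontal axes). Points are libraries and bars are the mean and SD of 3. SREBF2, STARD4, SC5D, HMGCS1, ELOVL6 and FADS1 are lower in every JQ1 library than in any DMSO library, and SCD is lower in knockout JQ1 than in the other groups.

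In the 8 genes from acetoacetyl-CoA to farnesyl diphosphate, 1 rose and 2 fell in wild type, and 1 rose and 3 fell in knockout. AACS, acetoacetyl-CoA synthetase, which makes the precursor from the ketone body acetoacetate, stood at 57.1, 56.2 and 57.7 CPM with DMSO and 86.4, 88.9 and 80.7 with JQ1 in wild-type cells. In knockout AACS stood at 62.5, 61.2 and 66.9 in DMSO and 90.5, 87.5 and 102 in JQ1. The JQ1 and DMSO libraries were fully separated in both genotypes. AACS rose by 49.7% in wild type (log2 fold change 0.58, SE 0.067, adjusted p = 1.18e-05) and by 47.1% in knockout (log2 fold change 0.56, SE 0.067, adjusted p = 1.50e-05) by edgeR.

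HMGCS1, the cytosolic HMG-CoA synthase that commits acetoacetyl-CoA to mevalonate synthesis, went the other way. It stood at 45.8, 43.2 and 42.9 CPM with DMSO and 31.7, 28.7 and 29.2 with JQ1 in wild-type cells, and at 39.7, 39.8 and 40.4 with DMSO and 35.9, 31.8 and 27.98 with JQ1 in knockout cells. All JQ1 libraries were below all DMSO libraries. HMGCS1 fell by 32.02% in wild type (log2 fold change -0.56, SE 0.081, adjusted p = 9.42e-05) and fell by 20.4% in knockout (log2 fold change -0.33, SE 0.081, adjusted p = 0.00566) by edgeR. FDPS, farnesyl diphosphate synthase, which closes this stretch of the pathway, fell by 21.4% in wild type (log2 fold change -0.35, SE 0.065, adjusted p = 0.000807) and fell by 19.5% in knockout (log2 fold change -0.31, SE 0.065, adjusted p = 0.00173). FDPS has 8 pseudogenes of its name in GENCODE release 29, so its counts are uncertain where reads could be shared.

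Of the remaining 5 genes of this arm, MVK alone passed, in knockout. MVK, mevalonate kinase, had a log2 fold change of -0.077 (adjusted p = 0.547) in wild type and fell by 16.1% in knockout (log2 fold change -0.25, SE 0.089, adjusted p = 0.0399). The MVK call in knockout by edgeR was lost without replicate 3 (0.0511) of wild-type DMSO, or replicate 2 (0.0550) of wild-type JQ1, or replicate 1 (0.0965) or 3 (0.110) of knockout DMSO, or replicate 1 (0.145) or 2 (0.0655) of knockout JQ1. Over all 22 alternatives, MVK was called in 12 in knockout, and its highest adjusted p was 0.427. PMVK, phosphomevalonate kinase, had log2 fold changes of 0.17 (adjusted p = 0.241) and 0.12 (adjusted p = 0.402) in wild type and knockout. For MVD, the decarboxylase that follows, they were 0.16 (adjusted p = 0.323) and 0.052 (adjusted p = 0.779), and for IDI1, the isopentenyl diphosphate isomerase, 0.096 (adjusted p = 0.306) and 0.15 (adjusted p = 0.105). With knockout JQ1 replicate 3 left out, IDI1 passed in knockout (0.22, adjusted p = 0.00981), and MVD was at -0.062 (adjusted p = 0.737). ACAT2, the cytosolic thiolase that joins acetyl-CoA units, had log2 fold changes of 0.0019 (adjusted p = 0.990) and -0.041 (adjusted p = 0.777), the latter 0.051 (adjusted p = 0.684) without knockout JQ1 replicate 3, and its exons overlap those of TCP1 and SOD2 on the opposite strand over 2996 bases.

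The 11 genes from squalene to sterol were split within the arm: 3 rose and 3 fell in wild type, and 1 rose and 3 fell in knockout. The shares called were 54.5% and 36.4%, against 33.1% and 34.4% of all tested genes. LSS, lanosterol synthase, which closes the sterol rings, stood at 33.7, 33.1 and 32.5 CPM with DMSO and 51.1, 50.95 and 46.7 with JQ1 in wild-type cells, and at 32.1, 34.5 and 34.7 with DMSO and 41.96, 44.6 and 55.1 with JQ1 in knockout cells. All 6 JQ1 libraries were above all 6 DMSO libraries. LSS rose by 49.8% in wild type (log2 fold change 0.58, SE 0.088, adjusted p = 0.000129) and by 39.95% in knockout (log2 fold change 0.48, SE 0.088, adjusted p = 0.000568) by edgeR. SC5D, the sterol desaturase near the end of the pathway, stood at 29.2, 25.4 and 27.1 CPM with DMSO and 16.1, 17.1 and 17.5 with JQ1 in wild-type cells, and at 27.00, 21.8 and 25.1 with DMSO and 18.7, 18.02 and 13.6 with JQ1 in knockout cells. No JQ1 library of SC5D reached the lowest DMSO library. SC5D fell by 37.9% in wild type (log2 fold change -0.69, SE 0.11, adjusted p = 0.000264) and fell by 32.1% in knockout (log2 fold change -0.56, SE 0.11, adjusted p = 0.00142).

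CYP51A1, which demethylates lanosterol directly after the LSS step, fell by 19.7% in wild type (log2 fold change -0.32, SE 0.066, adjusted p = 0.00188) and fell by 27.2% in knockout (log2 fold change -0.46, SE 0.067, adjusted p = 8.62e-05) by edgeR. Adjacent steps of the arm therefore moved in opposite directions, LSS up and CYP51A1 down, in both genotypes. The exons of CYP51A1 share 2943 bases with 2 genes annotated on the same strand, AC000120.2 and AC000120.3, so its counts are uncertain. MSMO1, the methylsterol monooxygenase, fell by 25.9% in wild type (log2 fold change -0.43, SE 0.097, adjusted p = 0.00307), and its log2 fold change in knockout was -0.26 (adjusted p = 0.0510). That knockout value lay close to the threshold, and MSMO1 was called lower in knockout in 7 of the 22 alternatives. DHCR7, a reductase of the last sterol step, had a log2 fold change of -0.064 (adjusted p = 0.533) in wild type and fell by 20.2% in knockout (log2 fold change -0.33, SE 0.071, adjusted p = 0.00221). NSDHL, a dehydrogenase that acts with MSMO1, had log2 fold changes of -0.020 (adjusted p = 0.883) in wild type and -0.23 (adjusted p = 0.0512) in knockout. It was called lower in knockout in 4 of the 22 alternatives.

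Small rises in wild type were called for SQLE, squalene epoxidase (log2 fold change 0.19, SE 0.068, adjusted p = 0.0405), and HSD17B7, the sterol ketone reductase (log2 fold change 0.38, SE 0.12, adjusted p = 0.0270). In knockout their log2 fold changes were 0.14 (adjusted p = 0.134) and 0.30 (adjusted p = 0.0679) by edgeR. The SQLE call was lost without replicate 1 (0.115) or 2 (0.184) of wild-type DMSO, or replicate 1 (0.0644), 2 (0.126) or 3 (0.0772) of wild-type JQ1, or replicate 3 (0.0507) of knockout DMSO. That of HSD17B7 was lost without replicate 1 (0.117) or 3 (0.0678) of wild-type DMSO, or replicate 1 (0.0721) or 3 (0.0837) of wild-type JQ1. Over all 22 alternatives, SQLE was called in 13 and HSD17B7 in 15 in wild type. FDFT1, squalene synthase, had log2 fold changes of -0.013 (adjusted p = 0.906) in wild type and -0.11 (adjusted p = 0.241) in knockout, and EBP, the sterol isomerase, 0.055 (adjusted p = 0.797) and -0.0085 (adjusted p = 0.973). TM7SF2, a sterol reductase, was barely detected, with 0 to 110 counts per library. It stood at 1.61, 3.12 and 2.45 CPM with DMSO and 3.45, 2.004 and 1.42 with JQ1 in wild-type cells, and at 0.545, 1.44 and 0.491 with DMSO and 1.10, 0.812 and 0 with JQ1 in knockout cells. Its JQ1 log2 fold changes were -0.053 (adjusted p = 0.953) and -0.43 (adjusted p = 0.692). The knockout value was 0.22 (adjusted p = 0.788) without knockout JQ1 replicate 3, which held none of its counts.

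STARD4, a soluble carrier that moves sterol between membranes, stood at 39.8, 34.98 and 36.4 CPM with DMSO and 23.8, 25.1 and 27.5 with JQ1 in wild-type cells. In knockout it stood at 38.4, 34.7 and 35.7 in DMSO and 21.6, 20.2 and 12.98 in JQ1. Every JQ1 library was below every DMSO library, and every knockout JQ1 library was below every wild-type JQ1 library. STARD4 fell by 31.2% in wild type (log2 fold change -0.54, SE 0.13, adjusted p = 0.00607) and fell by 49.8% in knockout (log2 fold change -0.996, SE 0.14, adjusted p = 5.53e-05) by edgeR. Without knockout JQ1 replicate 3, its lowest library, the knockout log2 fold change was -0.79 (adjusted p = 2.46e-06). The wild-type call was lost in limma on the authors' normalized signal (log2 fold change -0.35, adjusted p = 0.110).

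In the fatty acid arm the elongase and both polyunsaturated fatty acid desaturases fell in both genotypes, and the acetyl-CoA suppliers ACLY and ACSS2 rose in wild type. Of its 8 genes, 2 rose and 3 fell in wild type, and 0 rose and 5 fell in knockout. The share called was 62.5% in each genotype, against 33.1% and 34.4% of all tested genes. ELOVL6, the elongase that acts on palmitate, stood at 66.6, 66.96 and 67.01 CPM with DMSO and 41.5, 42.5 and 40.9 with JQ1 in wild-type cells, and at 68.5, 60.6 and 69.8 with DMSO and 40.5, 37.9 and 33.7 with JQ1 in knockout cells. The lowest DMSO library was well above the highest JQ1 library. ELOVL6 fell by 37.8% in wild type (log2 fold change -0.68, SE 0.073, adjusted p = 5.36e-06) and fell by 43.7% in knockout (log2 fold change -0.83, SE 0.074, adjusted p = 7.69e-07) by edgeR.

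FADS1 and FADS2, the desaturases of polyunsaturated fatty acids, are neighbours whose exons overlap over 490 bases on opposite strands. FADS1 stood at 251, 249.9 and 256 CPM with DMSO and 178, 186 and 171 with JQ1 in wild-type cells, and at 243, 245 and 253 with DMSO and 162, 162 and 145 with JQ1 in knockout cells. For FADS2 the values were 22.7, 22.1 and 22.2 CPM with DMSO and 16.3, 14.4 and 12.8 with JQ1 in wild-type cells, and 20.8, 23.1 and 22.05 with DMSO and 12.2, 12.6 and 14.3 with JQ1 in knockout cells. For both genes all JQ1 libraries were below all DMSO libraries. FADS1 fell by 29.4% in wild type (log2 fold change -0.50, SE 0.055, adjusted p = 6.88e-06) and fell by 36.6% in knockout (log2 fold change -0.66, SE 0.055, adjusted p = 4.40e-07) by edgeR. FADS2 fell by 34.9% in wild type (log2 fold change -0.62, SE 0.093, adjusted p = 0.000122) and fell by 40.6% in knockout (log2 fold change -0.75, SE 0.094, adjusted p = 2.14e-05).

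SCD, the stearoyl-CoA desaturase that makes oleate, fell in knockout and did not pass the test in wild type. It stood at 570.2, 560.5 and 559 CPM with DMSO and 565, 585 and 550.5 with JQ1 in wild-type cells, and at 589.6, 577 and 619.7 with DMSO and 492, 476 and 492 with JQ1 in knockout cells. The 3 knockout JQ1 libraries were below the other 9. In knockout SCD fell by 18.3% (log2 fold change -0.29, SE 0.046, adjusted p = 0.000161), while in wild type its log2 fold change was 0.0089 (SE 0.046, adjusted p = 0.906 by edgeR). ACACA, acetyl-CoA carboxylase, which makes malonyl-CoA, fell by 13.9% in knockout (log2 fold change -0.22, SE 0.048, adjusted p = 0.00285) and had a log2 fold change of -0.10 (adjusted p = 0.119) in wild type.

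ACLY, which splits citrate into cytosolic acetyl-CoA, rose by 17.98% in wild type (log2 fold change 0.24, SE 0.049, adjusted p = 0.00163), with a log2 fold change of 0.098 (adjusted p = 0.141) in knockout. ACSS2 makes acetyl-CoA from acetate. It stood at 65.2, 65.1 and 73.3 CPM with DMSO and 83.7, 85.4 and 77.1 with JQ1 in wild-type cells, and at 87.3, 86.6 and 85.2 with DMSO and 98.7, 76.9 and 91.6 with JQ1 in knockout cells. The wild-type DMSO libraries were the lowest of the 12. ACSS2 rose by 20.9% with JQ1 in wild type (log2 fold change 0.27, SE 0.082, adjusted p = 0.0191), a call lost without replicate 1 (0.0710) or 2 (0.0725) of wild-type DMSO, or replicate 1 (0.0625) or 2 (0.0754) of wild-type JQ1, and its log2 fold change in knockout was 0.045 (adjusted p = 0.725) by edgeR.

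FASN, the fatty acid synthase, is described because of its spread, and was chosen after its values were seen. It stood at 523, 575 and 539.6 CPM with DMSO and 545, 499 and 439 with JQ1 in wild-type cells, and at 422, 589.7 and 568 with DMSO and 373, 408 and 624 with JQ1 in knockout cells. Knockout JQ1 replicate 3 was far above its group and knockout DMSO replicate 1 far below its group. FASN did not pass in either genotype with all libraries, at log2 fold changes of -0.14 (adjusted p = 0.539) in wild type and -0.17 (adjusted p = 0.462) in knockout. Without knockout JQ1 replicate 3 it fell in knockout by edgeR (-0.43, adjusted p = 0.00863).

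**Figure D3:**
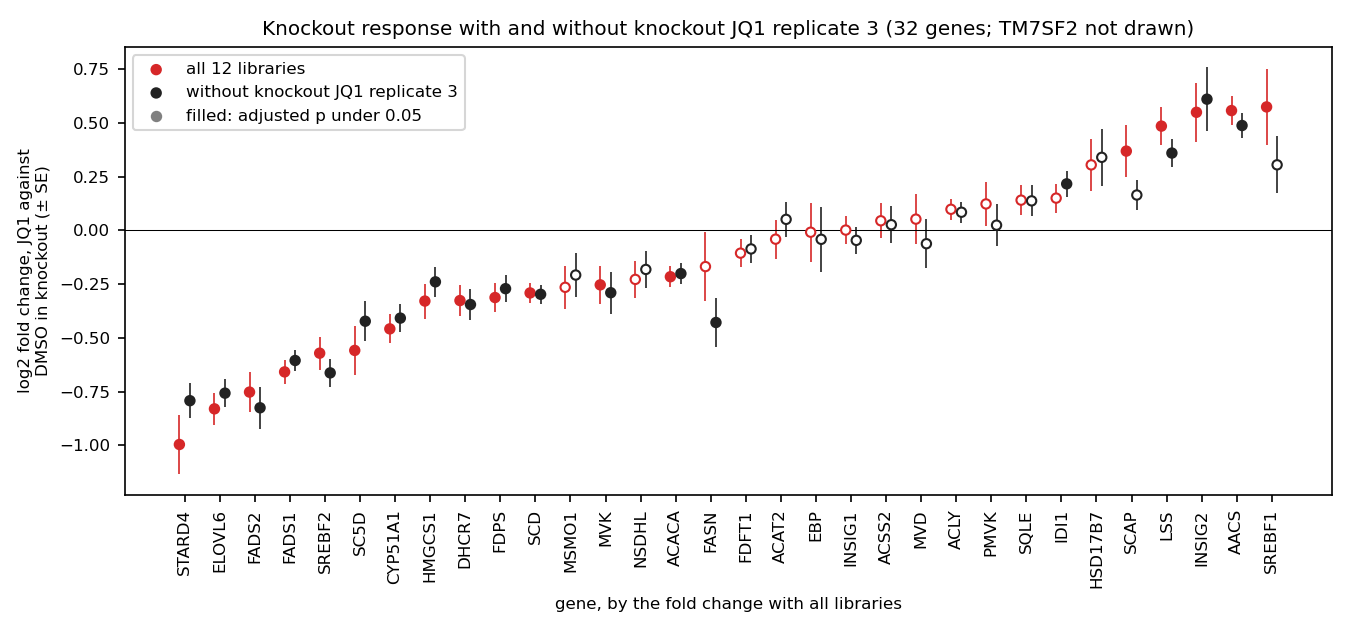
Log2 fold change of JQ1 against DMSO in knockout cells (vertical axis, bars are SE) for each gene (horizontal axis, TM7SF2 not drawn), with all 12 libraries in red and without knockout JQ1 replicate 3 in black. Filled points have an adjusted p under 0.05. SREBF1 and SCAP lose their calls without that library, and IDI1 and FASN gain one.

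Set side by side, JQ1 changed 14 of the 33 genes in the same direction in both genotypes, 9 lower and 5 higher. Of all tested genes, 25.2% were called in the same direction in both, 12.4% lower and 12.8% higher. The numbers were 9 lower and 3 higher without knockout JQ1 replicate 3, since SREBF1 and SCAP no longer passed in knockout. These comparisons use separate controls. INSIG1, SQLE, MSMO1, HSD17B7, ACLY and ACSS2 passed in wild type and not in knockout, and MVK, DHCR7, ACACA and SCD passed in knockout and not in wild type. The remaining 9, ACAT2, PMVK, MVD, IDI1, FDFT1, TM7SF2, NSDHL, EBP and FASN, passed in neither. Whether a gene differed between genotypes was tested with the interaction. By edgeR, 0 of 33 genes passed that test, against 0.134% of all tested genes (0.0323% higher and 0.101% lower), with 4 at an unadjusted p under 0.05 and 1 called by DESeq2. The 4 were SCD, DHCR7, STARD4 and INSIG1, each with a more negative JQ1 response in knockout. Their interaction log2 values were -0.30 (adjusted p = 0.117), -0.26 (adjusted p = 0.493), -0.46 (adjusted p = 0.537) and -0.21 (adjusted p = 0.553). SCD was the gene called by DESeq2 (adjusted p = 0.000890), and by edgeR it passed without knockout JQ1 replicate 3 (-0.31, adjusted p = 0.0402). Over all genes DESeq2 called 33 interactions higher and 106 lower, against 7 and 22 by edgeR. Without that library the interaction of STARD4 was -0.25 (adjusted p = 0.331). The interaction was negative for 26 of 33 genes, with a median of -0.098 against -0.0061 over all tested genes, and for 25 of 33 without knockout JQ1 replicate 3. The share of all tested genes with a negative interaction was not counted. Nor was the share at an unadjusted p under 0.05, in this or any other comparison.

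**Figure D4:**
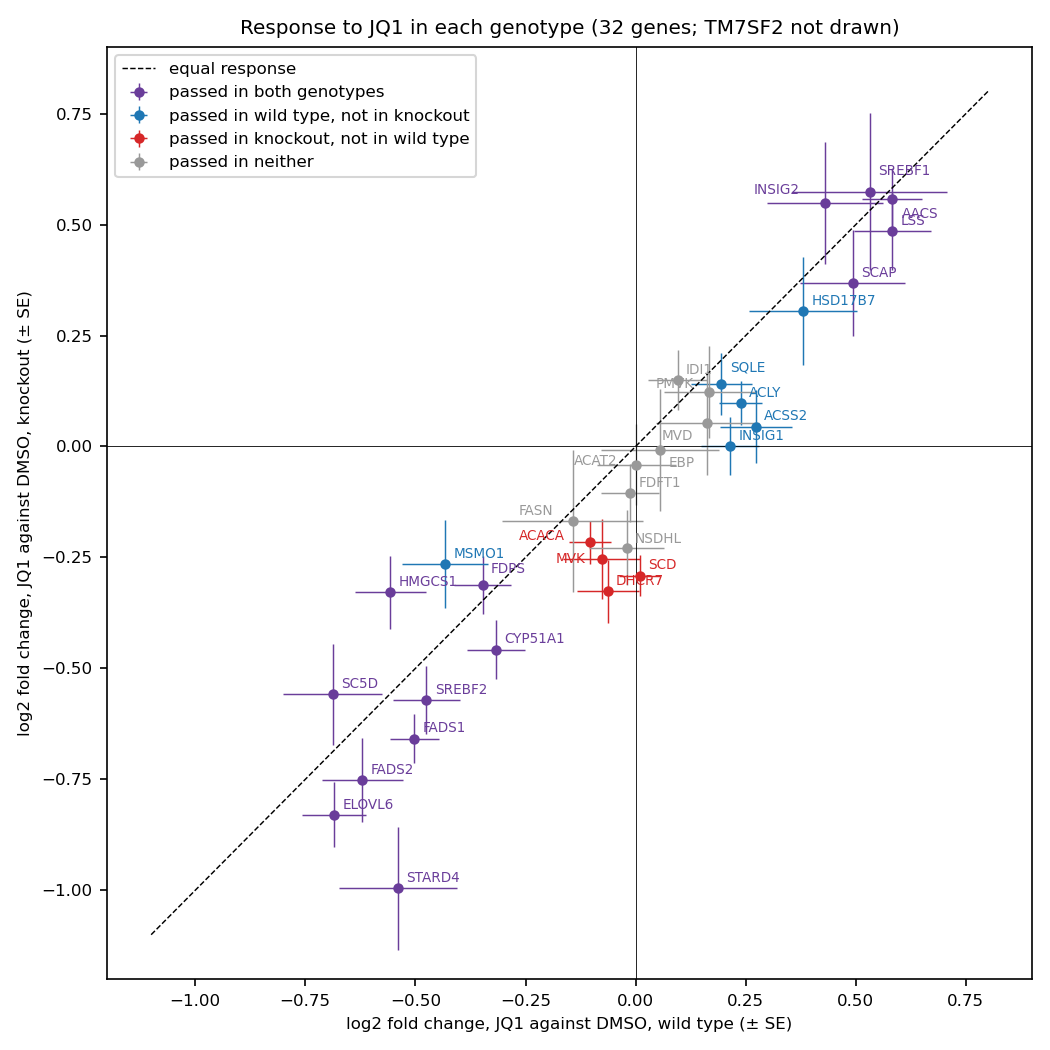
Log2 fold change of JQ1 against DMSO in wild type (horizontal axis) and in knockout (vertical axis) for each gene, with SE bars and TM7SF2 not drawn. Colour gives the genotypes in which the gene passed the test. The dashed line marks equal responses. The genes that passed in both lie in the upper right and lower left, and STARD4 and SCD lie below the line.

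Knockout and wild-type cells in DMSO were compared next. By edgeR 1 of 33 genes (3.03%) was called, against 7.92% of all tested genes. The median was -0.0074 against -0.0049 over all tested genes. At an unadjusted p under 0.05 there were 8 genes, and the share of all tested genes there was not counted. ACSS2 was the gene called, 27.2% higher in knockout (log2 fold change 0.35, SE 0.082, adjusted p = 0.0160), a call lost without replicate 1 (0.0679) or 2 (0.0703) of wild-type DMSO. Its knockout DMSO libraries were all above its wild-type DMSO libraries, which were also the control for its rise with JQ1 in wild type. No gene was called lower (of all tested genes, 3.47% were called higher and 4.44% lower), and DESeq2 likewise called 1 higher and 0 lower. Over all genes DESeq2 called 1058 higher and 965 lower, against 754 and 964 by edgeR. The widest gap was in TM7SF2, at a log2 fold change of -1.52 (adjusted p = 0.159), on the low counts given above. INSIG2 was at -0.39 (adjusted p = 0.107), MSMO1 at -0.27 (adjusted p = 0.119) and IDI1 at -0.19 (adjusted p = 0.105). Without knockout JQ1 replicate 3, which enters this comparison through the shared estimate of spread, IDI1 (-0.19, adjusted p = 0.0231) and TM7SF2 (-1.52, adjusted p = 0.0194) passed as lower, and without knockout JQ1 replicate 1 INSIG2 did (-0.39, adjusted p = 0.0440). With no filter on low counts TM7SF2 was also called (-1.52, adjusted p = 7.29e-05). When the edgeR fit held only the DMSO libraries, INSIG2 (-0.39, adjusted p = 0.0446) and IDI1 (-0.19, adjusted p = 0.0436) were called lower. So were TM7SF2 (-1.52, adjusted p = 0.0165) and MSMO1 (-0.27, adjusted p = 0.0315) in that fit.

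Under JQ1, 4 of 33 genes (12.1%) were lower in knockout and 0 were higher by edgeR, against 8.57% of all tested genes called in either direction, 5.56% lower and 3.01% higher. At an unadjusted p under 0.05 there were 7 genes, again without the share of all tested genes. The median was -0.077 against -0.0015 over all tested genes, and DESeq2 called 4 lower and 0 higher. Over all genes DESeq2 called 1260 lower and 836 higher, against 1207 and 653 by edgeR. The 4 called lower by edgeR were STARD4, INSIG1, SCD and FADS1, whose values in every library are given above. INSIG1 was lower by edgeR (log2 fold change -0.30, SE 0.065, adjusted p = 0.00993), and its knockout JQ1 libraries did not reach its wild-type JQ1 libraries. SCD was lower (log2 fold change -0.22, SE 0.046, adjusted p = 0.00688), also without overlap. STARD4 (log2 fold change -0.49, SE 0.14, adjusted p = 0.0438) and FADS1 (log2 fold change -0.19, SE 0.055, adjusted p = 0.0479) lay close to the threshold. Leaving out any of the 6 wild-type libraries or of the 3 knockout DMSO libraries ended the calls of both STARD4 and FADS1, so that 2 genes were called. For STARD4 the adjusted p then lay between 0.0602 and 0.152. The call of FADS1 was also lost without any of the 3 knockout JQ1 replicates, and over all these it lay between 0.0517 and 0.202. Without knockout JQ1 replicate 3 the value of STARD4 was -0.29 (adjusted p = 0.0398) and that of FADS1 was -0.14 (adjusted p = 0.0771). SREBF2 was then called lower (-0.23, adjusted p = 0.0293). Over the 22 alternatives STARD4 was called in 9 and FADS1 in 3. INSIG2 (-0.45, adjusted p = 0.0431) and CYP51A1 (-0.23, adjusted p = 0.0477) were called lower without knockout JQ1 replicate 1. TM7SF2 had a log2 fold change of -1.90 (adjusted p = 0.0869), and its knockout JQ1 libraries lay below its wild-type JQ1 libraries. It was called with no filter on low counts (-1.92, adjusted p = 1.46e-06) and stood at -1.25 (adjusted p = 0.101) without knockout JQ1 replicate 3. When the fit held only the 6 libraries compared, 0 of the 33 genes were called lower. The comparison in JQ1 shares its knockout and wild-type JQ1 libraries with the comparisons above.

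**Figure D5:**
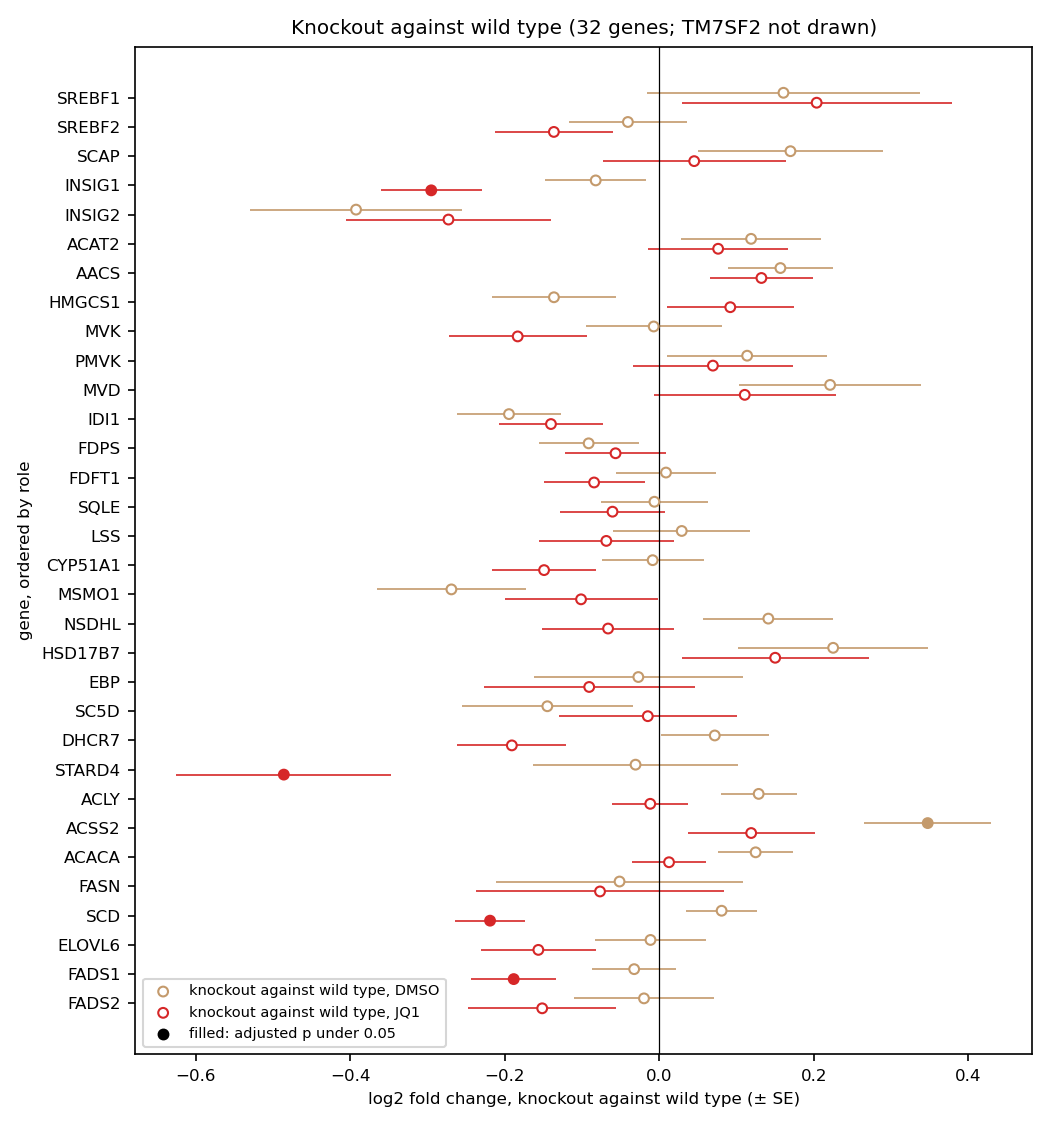
Log2 fold change of knockout against wild type (horizontal axis, bars are SE) for each gene (vertical axis, in order of role, TM7SF2 not drawn), in DMSO (brown) and in JQ1 (red). Filled points have an adjusted p under 0.05. ACSS2 is filled in DMSO, and STARD4, INSIG1, SCD and FADS1 are filled in JQ1.

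Genes around the 33 were read from 5 lists of 72 genes in all, every one of which was tested. With JQ1, 26 of the 72 rose and 5 fell in wild type (43.1% called), and 24 rose and 7 fell in knockout (43.1%), by edgeR, against the 33.1% and 34.4% of all tested genes given above. Their median log2 fold change was 0.12 in wild type and 0.11 in knockout. Of all tested genes, 16.9% were called higher and 16.2% lower in wild type, and 16.7% and 17.8% in knockout. Without knockout JQ1 replicate 3, which enters the wild-type comparison through the shared estimate of spread, 31 rose and 10 fell in wild type and 28 rose and 9 fell in knockout. The shares of all tested genes called in that fit are not given, so whether these larger counts are particular to the lists cannot be told. Among 11 genes of SREBP cleavage and turnover, 3 rose and 0 fell in wild type and 3 rose and 1 fell in knockout. The shares called were 27.3% and 36.4%, near those of all tested genes. The Golgi protease gene MBTPS1, which starts the cleavage of SREBPs, had log2 fold changes of 0.36 in wild type and 0.27 in knockout (adjusted p = 0.000191 and 0.00153). For MBTPS2, the protease of the next step, the test gave log2 fold changes of -0.17 in wild type and -0.28 in knockout (adjusted p = 0.0621 and 0.00542). The protease genes thus differed in sign, with MBTPS2 passing in knockout.

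Of 14 genes of the isoprenoid branches, which leave the sterol route at farnesyl diphosphate or before it, 4 rose and 1 fell in wild type and 4 rose and 0 fell in knockout. The shares called were 35.7% and 28.6%, near the 33.1% and 34.4% of all tested genes. GGPS1, which makes geranylgeranyl diphosphate, had log2 fold changes of 0.59 in wild type and 0.46 in knockout (adjusted p = 0.000212 and 0.00178). COQ2, of ubiquinone synthesis, had log2 fold changes of 0.48 in wild type and 0.59 in knockout (adjusted p = 0.00223 and 0.000414), and ICMT, which methylates prenylated proteins, had log2 fold changes of 0.30 in wild type and 0.66 in knockout (adjusted p = 0.00963 and 1.84e-05). FDPS, which feeds this branch, fell in both genotypes, as given above.

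Of 15 genes of sterol uptake, transport and efflux, 7 rose and 1 fell in wild type and 7 rose and 2 fell in knockout. The shares called were 53.3% and 60.0%, against 33.1% and 34.4% of all tested genes. ABCA1, the exporter that passes cholesterol to apolipoproteins, had log2 fold changes of 0.63 in wild type and 0.45 in knockout (adjusted p = 1.20e-06 and 2.88e-05). NR1H3, the gene of the sterol-sensing nuclear receptor LXR alpha, which is known to raise ABCA1, had log2 fold changes of -0.79 in wild type and -1.01 in knockout (adjusted p = 1.15e-05 and 1.25e-06). The lipoprotein receptor gene VLDLR had log2 fold changes of 0.67 in wild type and 1.28 in knockout (adjusted p = 1.77e-05 and 3.75e-08), with an interaction of 0.61 (adjusted p = 0.0667) by edgeR.

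Of 19 other genes of fatty acid elongation, desaturation and activation, 5 rose and 3 fell in wild type and 3 rose and 3 fell in knockout. The shares called were 42.1% and 31.6%, against 33.1% and 34.4% of all tested genes. ELOVL1, an elongase of very long chains, had log2 fold changes of 0.57 in wild type and 0.54 in knockout (adjusted p = 7.63e-06 and 1.10e-05), where ELOVL6 fell. TECR, the reductase shared by the elongases, had log2 fold changes of 0.81 in wild type and 0.75 in knockout (adjusted p = 9.82e-06 and 1.74e-05), and ACSL1, which activates fatty acids to their CoA esters, had log2 fold changes of 0.52 in wild type and 0.71 in knockout (adjusted p = 1.95e-05 and 9.82e-07). Of 13 fatty acid oxidation genes, 7 rose and 0 fell in wild type and 7 rose and 1 fell in knockout. The shares called were 53.8% and 61.5%, against the same shares of all tested genes. ACADVL, the very long chain acyl-CoA dehydrogenase, had log2 fold changes of 0.58 in wild type and 0.71 in knockout (adjusted p = 1.55e-06 and 1.56e-07). ECHS1 had log2 fold changes of 0.39 in wild type and 0.38 in knockout (adjusted p = 0.000152 and 0.000141), and HADHB, a subunit of the trifunctional protein, had log2 fold changes of 0.25 in wild type and 0.26 in knockout (adjusted p = 0.00138 and 0.000848). With knockout JQ1 replicate 3 left out, the knockout rises and falls were 5 and 1 for SREBP cleavage and turnover, 6 and 1 for the isoprenoid branches, 5 and 2 for sterol uptake, transport and efflux, 5 and 3 for the other fatty acid genes, and 7 and 2 for oxidation. Knockout against wild type called 3 of the 72 higher and 7 lower in DMSO (13.9%, against 7.92% of all tested genes) and 3 higher and 5 lower in JQ1 (11.1%, against 8.57%). These were 4 higher and 8 lower in DMSO and 5 higher and 6 lower in JQ1 without knockout JQ1 replicate 3. The interaction called 0 by edgeR, with 6 at an unadjusted p under 0.05, and without that library it called 1, VLDLR (0.62, adjusted p = 0.0402).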

How the data were processed

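RNA from 12 libraries was depleted of ribosomal RNA and made into directional libraries, per the labels' protocols. One table deposited by the authors holds estimated counts per gene symbol, with 38.3% to 41.3% of values not whole, and another holds a normalized signal for 32828 genes. Per the submitters' processing notes, Trim Galore, cutadapt, FastQC, MultiQC, kallisto and DESeq2 were used with genome build GRCh38.p10. Their roles, their versions, the annotation and whether counting used the strand are not given in the sources used here, so overlapping and duplicated genes are uncertain. Every table column matched a sample by name.

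Estimated counts were rounded to whole numbers, as the count test needs. The function filterByExpr of edgeR, given the 4 groups, removed genes with low counts and left 21698 genes, and libraries were scaled by TMM (factors 0.926 to 1.06). A single quasi-likelihood fit with a term per group and no covariates took all 12 libraries (edgeR 4.0.16, limma 3.58.1, R 4.3.3). The 5 contrasts were JQ1 in each genotype, knockout in each treatment and their interaction, with Benjamini-Hochberg adjustment over all tested genes and a threshold of 0.05. Fold changes used a prior count of 0.125, and SE is the size of the log2 fold change over the square root of the F statistic. CPM were computed per 1000000 counts after TMM scaling. The procedure was tested on simulated data.

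The 33 genes and the other lists were chosen with earlier results of these data known. Values in every library are given for the SREBP regulators and for the called genes with the largest changes, the first 8 in each JQ1 contrast and the first 5 in each knockout contrast. From the other lists at most 3 genes per JQ1 contrast were named, those with the lowest adjusted p. A gene that this rule would name is not reported here. Replicate numbers did not pair the libraries. Alternatives were other scalings, filters and tests (DESeq2 1.42.0, and limma on log2 of the authors' normalized signal + 1), a replicate block, unrounded counts, a fit of only the groups compared, and leaving out each library. Gene positions came from GENCODE release 29 and promoters from RefSeq (GRCh38.p14).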

Additional observations from a re-analysis of the deposited data

How the results depend on the processing

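No gene that passed in the fit reported changed direction in any of the 22 alternatives. For JQ1 in wild type, the 10 rises became 3 with library totals only and 5 with upper-quartile factors, and 4 to 10 when each library was left out. For JQ1 in knockout, the 5 rises became 3 with library totals only, 3 with only the groups compared, and 3 to 6 with each library left out. For knockout in DMSO, the 1 higher call became 0 to 1 with each library left out, and the 0 lower calls became 1 with no low-count filter, 4 with only the groups compared, and 0 to 2 with each library left out. For knockout in JQ1, the 4 lower calls became 2 with upper-quartile factors, 2 with limma on the normalized signal, 0 with only the groups compared, and 2 to 5 with each library left out. For the interaction, the 0 lower calls became 1 with DESeq2 and 0 to 1 with each library left out. Fits of fewer libraries have fewer degrees of freedom and another estimate of spread, and the cause of these moves was not tested.

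Replicate numbers did not pair the libraries: deviations of same-numbered libraries correlated at -0.115 to 0.0786, none of 18 above 0.1, and a library matched its own number best in 3 of 36 comparisons. A replicate block gave 10 higher and 10 lower for JQ1 in wild type, 5 and 12 in knockout, 1 and 0 for knockout in DMSO, 0 and 2 for knockout in JQ1, and 0 for the interaction.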
